A study of Rattus norvegicus with 24 samples.

Results

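The 83 genes described here carry symbols of families of pre-mRNA splicing proteins and other RNA-binding proteins. The families include the SR proteins (Srsf genes) and the heterogeneous nuclear ribonucleoproteins (Hnrnp), which coat nascent RNA. Others are the SF3a and SF3b subunits of the U2 particle (Sf3a and Sf3b) and other proteins of small nuclear ribonucleoproteins (Snrp). The rest are the pre-mRNA processing factors (Prpf), the U2 auxiliary factor (U2af) and the numbered RNA-binding motif genes (Rbm). The Rbm genes share a name and differ in function, so not all 83 genes are splicing factors. They were chosen by symbol: of 160 probe sets whose only annotated gene symbol belongs to these families, 123 had a log2 level above 4 on at least 6 of the 21 arrays, and the probe set with the highest mean stands for each of 83 genes out of 8737 genes measured. Each array holds RNA from the dissected dentate gyrus of a different male Long-Evans rat, given no treatment, hybridised to Affymetrix Rat Genome 230 2.0 arrays. The groups are 7 aged rats (24 to 26 months) with impaired spatial learning, 6 aged rats (24 to 26 months) with unimpaired learning and 8 young rats (6 months). Learning was scored by how rats searched for the hidden platform of a Morris water maze. Aged rats that scored within the young range are the unimpaired group, and those that scored worse are the impaired group, so the division rests on 1 behavioural index. Tissue was taken 2 weeks after testing.

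Splicing removes introns in a stepwise way. The U1 particle marks the start of the intron and the U2 particle binds its branch point. The U4, U5 and U6 particles join them, and the whole rearranges into a catalytic complex. SR proteins bind exons and mostly favour their use, hnRNP proteins often act against nearby splice sites, and the balance of both sets alternative splicing, which is widely used in neurons. Arrays of this type measure the amount of transcript near its 3' end and not which exons it holds, so the values below are about the levels of the factors and not about splicing itself.

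All 83 probe sets were above the level of 4 on all 21 arrays. The families held 9 Srsf, 17 Hnrnp, 9 Sf3a or Sf3b, 9 Snrp, 11 Prpf, 3 U2af and 25 Rbm genes, and 1 of the Srsf symbols, Srsf7-ps4, is that of a pseudogene. No probe set above the filter was left for 12 of the 95 genes: Rbm4, Rbm11, Rbm12, Rbm19, Rbm20, Rbm38, Rbm43, Rbm44, Rbm47, Snrpn, Srsf3 and Srsf7. A further 10 probe sets carried a symbol of these families together with another symbol and were left out, because they cannot be assigned to 1 gene. The nearest to the threshold from outside were Rbm4, with a mean of 3.94 and 3 arrays above 4, and a second probe set for Snrpd1, with a mean of 3.78 and also 3 arrays. The nearest from inside was a second probe set for Rbm7, with a mean of 4.05. Array medians lay between 3.77 and 3.84. All groups had dentate granule neuron markers at a high mean level, from 10.2 to 10.5 in impaired, 10.2 to 10.4 in unimpaired and 9.91 to 10.4 in young rats over 7 markers. Tissue was bulk, so fewer cells of a type and less RNA per cell cannot be told apart. Of 12 listed markers of the meninges, the membranes around the brain, only Igf2 and Igfbp2 passed the filter. Their mean lay between 5.14 and 8.55 in impaired, 5.08 and 5.58 in unimpaired and 5.64 and 6.90 in young rats. The mean of 5 endothelial markers lay between 6.82 and 7.20 in impaired, 6.74 and 6.88 in unimpaired and 6.92 and 7.20 in young rats. For the meningeal and endothelial lists each unimpaired array was below each young array. Of 8 listed markers of the choroid plexus, Enpp2 and Ttr passed the filter. Their mean lay between 6.17 and 9.65 in impaired, 5.98 and 9.04 in unimpaired and 6.27 and 9.93 in young rats. It was highest on young replicate 2, impaired replicate 7 and unimpaired replicate 3. For this and the other lists scored, unimpaired and young arrays overlapped. The part of these tissue differences in the results below was not tested.

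The comparison of impaired aged with young rats asks how these genes differ with age in animals that learned poorly. None of the 83 passed limma's test at an adjusted p below 0.05, where the share passing was 0.514% of all 15177 probe sets tested. At an unadjusted p below 0.05 the count was 5 of 83 (6.02%), all with a positive difference: Hnrnpa3, Hnrnpdl, Hnrnpl, Rbm3 and Srsf5. Over all genes the share was 13.1%, with 8.57% higher. The median log2 difference of the 83 genes was 0.02, against 0.01 over all tested probe sets, and 49 of 83 (59.0%) were positive against 56.2% of all genes. Rbm3 alone differed by more than 1.25-fold, where 2.63% of all genes did. For 78 of the 83 genes the whole 95% interval of the difference lay within 1.25-fold in either direction, which held for 81.3% of all genes. The half-width of the interval had a median of 0.12.

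Unimpaired aged rats were compared with the same young arrays, so the 2 comparisons are not independent. Again no gene passed, where 1.13% of all tested probe sets did. At an unadjusted p below 0.05 there were 7 of 83 (8.43%), all with a negative difference, against 18.0% of all genes, with 14.9% lower. They were Hnrnpf, Prpf38a, Rbm45, Rbm8a, Sf3b1, Snrpd1 and Snrpe. The median difference was -0.03, against -0.04 over all tested probe sets, and 22 of 83 (26.5%) were positive against 32.8% of all genes. This balance depended on scaling: 49 of 83 were positive after quantile normalization, with a median of 0.019. The intervals of 76 of the 83 genes (91.6%) lay within 1.25-fold in either direction, against 77.3% of all genes.

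The direct comparison of the aged groups asks which genes separate poor from good learners of the same age. No gene of the 83 and 0.00% of all tested probe sets passed. At an unadjusted p below 0.05 there were 16 of 83 (19.3%), 15 of them higher in impaired rats, against 15.8% of all genes, with 14.4% higher and 1.41% lower. They were Hnrnph3, Hnrnpr, Prpf38a, Rbm3, Rbm24, Rbm26, Rbm28, Rbm34, Rbm39, Rbm45, Sf3b1, Sf3b6, Snrpd3, Snrpe and Srsf11, and Rbm15b alone was lower. Rbm3 alone differed by more than 1.25-fold, where 2.19% of all genes did. The median difference was 0.06, against 0.05 over all tested probe sets, and 66 of 83 (79.5%) were positive against 74.7% of all genes. After quantile normalization 41 of 83 were positive and the median was -0.00023. Rbm3 and Sf3b1 (2.41% of the 83) had no overlap between groups, with impaired arrays higher, which was seen in 1.19% of all genes. For the mean of both aged groups against young rats no gene passed either, where 1.11% of all tested probe sets did, and 5 of 83 (6.02%) had an unadjusted p below 0.05 against 15.1% of all genes. The median difference was -0.0082 against -0.014 over all tested probe sets.

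**Figure D1:**
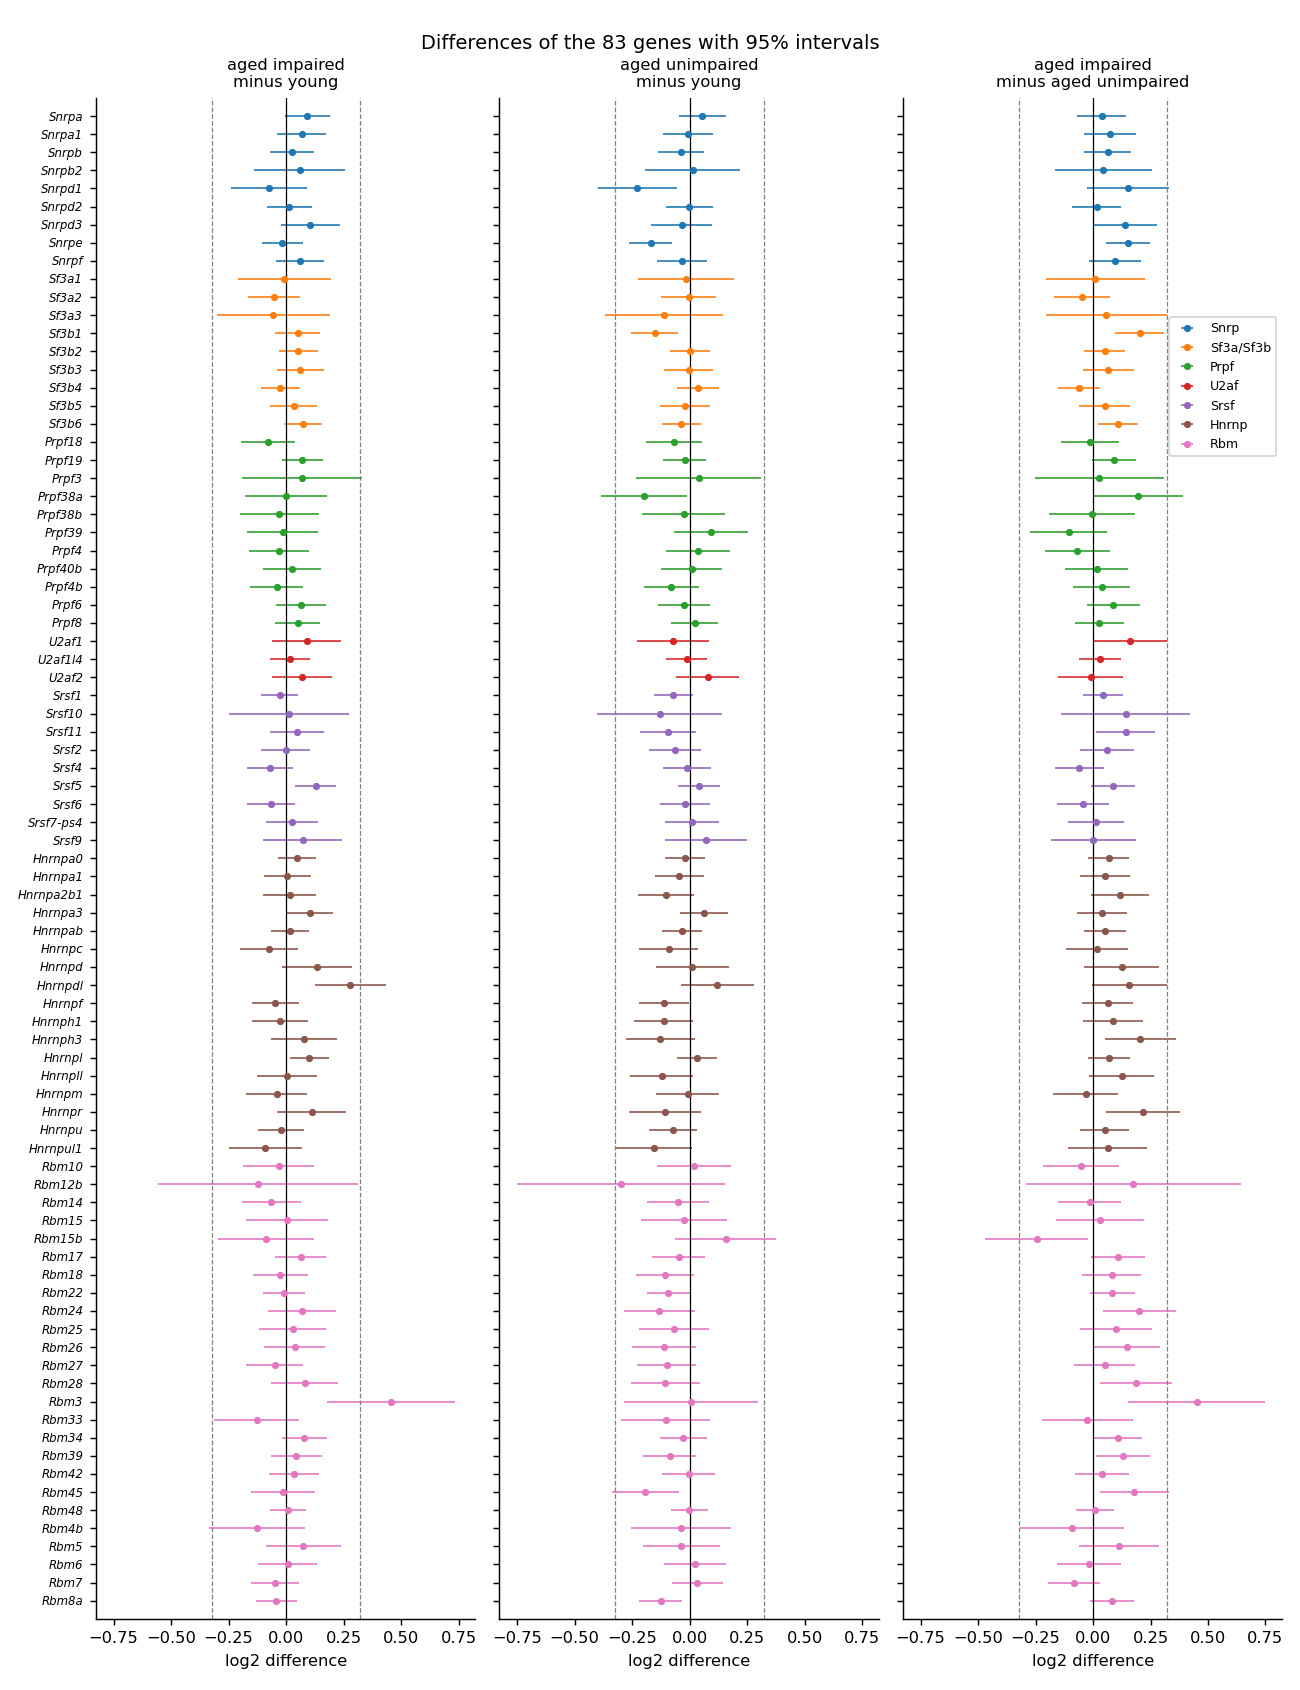
Log2 differences (x axis, points) with 95% intervals (bars) of the 83 genes, ordered and coloured by family, for impaired minus young, unimpaired minus young and impaired minus unimpaired rats. Dashed lines mark 1.25-fold, and apart from Rbm3, whose points lie at 0.46 and 0.45 in the outer panels, every point lies between them.

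Averaged over the 83 genes, each array could be set against the mean of the young arrays. This mean deviation was lowest at -0.022, had a median of 0.026 and was highest at 0.064 in impaired rats. It ran from -0.124 over a median of -0.019 to 0.017 in unimpaired rats, and from -0.071 over a median of -0.0068 to 0.105 in young rats. The groups overlapped, and unimpaired replicates 4 and 8, at -0.101 and -0.124, lay lowest of the 21 arrays. The same arrays were lowest when all 8737 genes were averaged, at -0.078 and -0.092. Relative to all genes the 83 genes lay between -0.032 and 0.053 in impaired, -0.031 and 0.025 in unimpaired and -0.047 and 0.058 in young rats.

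**Figure D2:**
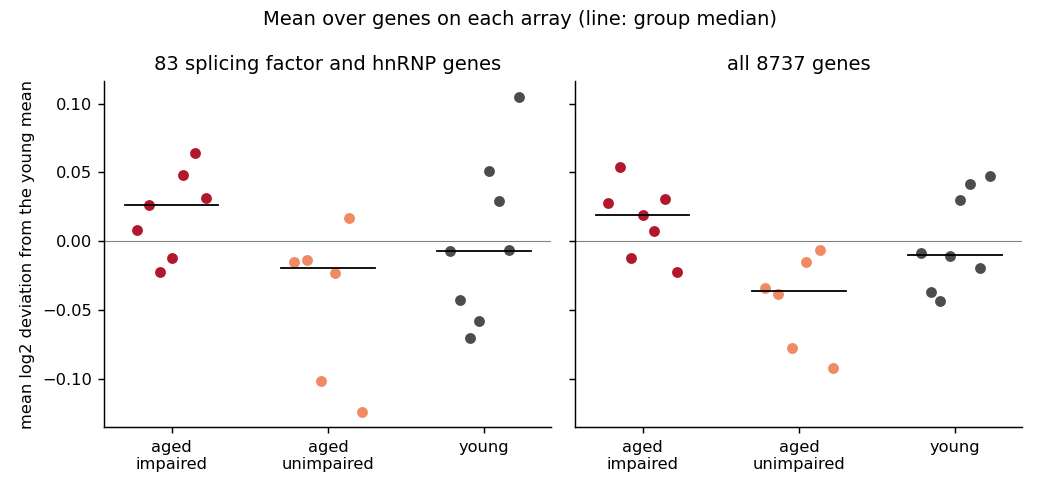
Mean log2 deviation from the young mean (y axis) on each array, over the 83 genes (left) and over all 8737 genes (right), with group medians as lines. Unimpaired replicates 4 and 8 are lowest in both panels, and the 3 groups overlap on the left.

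Among the cold-inducible RNA-binding proteins, Rbm3 had the largest difference of the 83 genes. Its protein, which is induced by mild cooling, binds RNA and has been tied to translation at synapses. Rbm3 (chromosome X) had a lowest level of 11.02, a median of 11.07 and a highest of 11.40 in impaired rats, of 10.35, 10.76 and 10.99 in unimpaired rats and of 10.20, 10.69 and 11.21 in young rats. Each impaired array was above each unimpaired array. Impaired and young arrays overlapped, since young replicates 1 and 5, at 11.21 and 11.20, lay within the impaired range. The difference was 0.46 ± 0.13 (SE) from young rats, a ratio of 1.37, with an interval of 0.18 to 0.73 (limma adjusted p = 0.132). From unimpaired rats it was 0.45 ± 0.14, with an interval of 0.15 to 0.75 (limma adjusted p = 0.195). Unimpaired rats differed from young rats by 0.0065, with an interval of -0.28 to 0.30. Of the fits that left out 1 array, only that without young replicate 5 passed (limma adjusted p = 0.0483, against up to 0.231 in the others). There the difference of impaired from young rats was 0.53. Without the 4 arrays that were high for meningeal markers in an earlier look at these data, impaired replicates 2, 3 and 7 and young replicate 5, it was 0.49 (limma adjusted p = 0.299).

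Cirbp, the close relative of Rbm3 that is also induced by cold, was on the list of other splicing genes. It had a lowest level of 9.59, a median of 9.77 and a highest of 10.06 in impaired, of 9.35, 9.61 and 9.81 in unimpaired and of 9.33, 9.51 and 9.70 in young rats. All 7 impaired arrays were above the young mean, and the ranges overlapped. The difference of impaired from young rats was 0.25 ± 0.07 (limma adjusted p = 0.132), another probe set for Cirbp gave 0.40 (limma adjusted p = 0.758), and that of impaired from unimpaired rats 0.14 ± 0.08 (limma adjusted p = 0.419).

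Hnrnpdl, which encodes a relative of the AU-rich RNA-binding protein hnRNP D, had the smallest unadjusted p against young rats (0.00109). Its level was 10.29 at the lowest, 10.37 at the median and 10.62 at the highest in impaired rats. It was 10.14, 10.27 and 10.34 in unimpaired and 9.78, 10.11 and 10.43 in young rats. All 13 aged arrays lay above the young mean of 10.12, but young replicate 1, at 10.43, was higher than 5 of the 7 impaired arrays. Impaired rats differed from young rats by 0.28 ± 0.07, a ratio of 1.21, with an interval of 0.13 to 0.43 (limma adjusted p = 0.0931). Unimpaired rats differed from young rats by 0.12 ± 0.08 (limma adjusted p = 0.437) and impaired from unimpaired rats by 0.16 ± 0.08 (limma adjusted p = 0.362). Without young replicate 1 the difference of impaired from young rats was 0.32 and passed (limma adjusted p = 0.0327). No other fit of this difference that left out 1 array passed (limma adjusted p up to 0.183). A second probe set for the gene gave 0.25 ± 0.08 (limma adjusted p = 0.172). Hnrnpd itself differed by 0.14 ± 0.07 between impaired and young rats.

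The windows upstream of Rbm3, Cirbp and Hnrnpdl are shown because these genes had the most positive differences of impaired from young rats among the 83 genes and, for Cirbp, among the other splicing genes. Each is the 250 bases before an annotated transcript start in RefSeq, build GRCr8, read on the gene's strand, and capitals mark CCAAT on either strand and the letters TCCCCGCC, described upstream of Cirbp in mouse as a cold-responsive element, on either strand. The windows lie at chrX:17020655-17020904 (plus strand), chr7:10189476-10189725 (minus strand) and chr14:9861466-9861715 (plus strand, the first of the starts listed for Hnrnpdl).
Rbm3: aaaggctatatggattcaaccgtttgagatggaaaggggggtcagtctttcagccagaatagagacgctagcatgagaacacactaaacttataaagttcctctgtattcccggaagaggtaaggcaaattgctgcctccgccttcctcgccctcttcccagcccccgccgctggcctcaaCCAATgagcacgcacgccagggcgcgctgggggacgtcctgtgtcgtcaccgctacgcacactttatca
Cirbp: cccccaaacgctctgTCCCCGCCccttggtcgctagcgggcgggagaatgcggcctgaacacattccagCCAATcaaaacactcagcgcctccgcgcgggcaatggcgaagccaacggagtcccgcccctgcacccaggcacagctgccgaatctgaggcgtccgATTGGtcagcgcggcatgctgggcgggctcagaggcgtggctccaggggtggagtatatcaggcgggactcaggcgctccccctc
Hnrnpdl: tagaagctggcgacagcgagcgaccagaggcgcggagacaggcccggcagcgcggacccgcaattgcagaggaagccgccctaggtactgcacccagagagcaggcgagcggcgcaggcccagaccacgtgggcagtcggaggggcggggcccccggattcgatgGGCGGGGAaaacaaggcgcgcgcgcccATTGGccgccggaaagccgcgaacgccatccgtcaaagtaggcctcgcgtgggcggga

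Cirbp and the first start of Hnrnpdl each held 1 copy of TCCCCGCC in these windows, and Rbm3 held none. A second start of Hnrnpdl, with the window chr14:9862404-9862653, also held no TCCCCGCC and held 2 copies of CCAAT. Promoter windows of 300 bases, which add 50 bases after the start, were found for 78 of the 83 genes, in 84 windows. TCCCCGCC on either strand was in 8.33% of them, against 4.79% of all 33469 rat promoter windows. It can overlap the GC box GGGCGG, which was in 54.8% of the genes' windows and 33.1% of all windows. CCAAT was in 54.8% against 37.5%, the core letters of the cyclic AMP response element, TGACG, in 56% against 21.2%, and the ETS factor motif CCGGAAGT in 13.1% against 3.81%. TATAAA was in 8.33% against 14.2%. The genes' windows were richer in G and C, with a median of 60% against 51.7%, and in CG pairs, with a median of 23.5 against 7, and the windows were not matched for composition. These matches are a description of letters and not of binding.

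**Figure D3:**
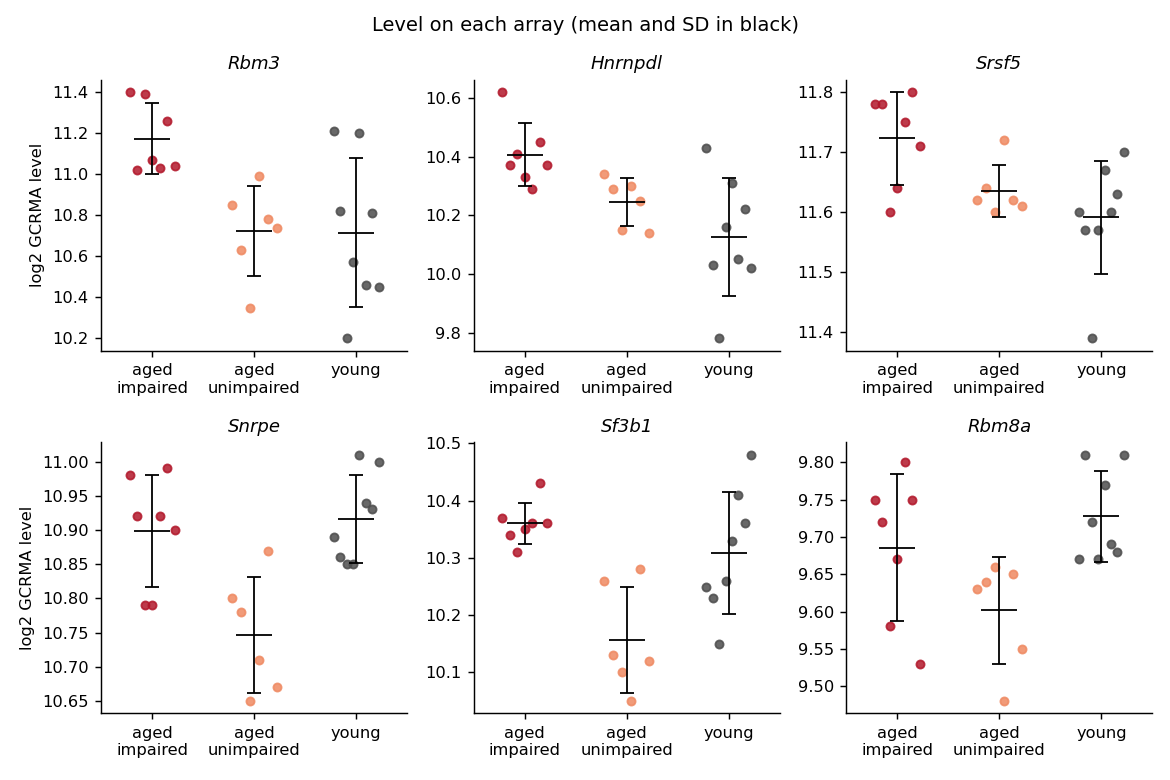
Log2 level (y axis) of 6 genes on each array, grouped as impaired, unimpaired and young rats, with mean and SD in black. All 7 impaired arrays are above all 6 unimpaired arrays for Rbm3 and Sf3b1, and all 6 unimpaired arrays are below all 8 young arrays for Rbm8a.

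The Snrp genes encode the core of the spliceosomal particles. Snrpb, Snrpd1, Snrpd2, Snrpd3, Snrpe and Snrpf encode members of the Sm ring that clamps the small nuclear RNA. Snrpa belongs to U1, and Snrpa1 and Snrpb2 belong to U2. None of the 9 passed in any comparison. Their differences of impaired from young rats ran from -0.07 to 0.11, with a median of 0.06. All 9 were positive in impaired minus unimpaired rats, with a median of 0.08. Of all genes 74.7% were positive there, with a median of 0.05. Over the 83 genes this balance depended on scaling, with 41 of 83 positive after quantile normalization.

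Snrpe had the smallest p of the 83 genes in unimpaired against young rats. Its level was 10.79 at the lowest, 10.92 at the median and 10.99 at the highest in impaired rats, 10.65, 10.75 and 10.87 in unimpaired rats and 10.85, 10.91 and 11.01 in young rats. Unimpaired arrays lay low, and 5 of the 6 were below every young array. The difference of unimpaired from young rats was -0.17 ± 0.04, with an interval of -0.26 to -0.08 (limma adjusted p = 0.0688). Without unimpaired replicate 7 it was -0.19 and passed (limma adjusted p = 0.043), and after quantile normalization the difference of Snrpe was -0.11 (limma adjusted p = 0.158). Impaired rats differed from unimpaired rats by 0.15 ± 0.05 (limma adjusted p = 0.185) and from young rats by -0.02 ± 0.04. Snrpd1, another protein of the Sm ring, differed by -0.23 ± 0.08 between unimpaired and young rats (limma adjusted p = 0.174). Snrpa differed by 0.09 ± 0.05 between impaired and young rats (limma adjusted p = 0.443).

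The SF3a and SF3b subunits hold the U2 particle on the branch point of the intron. Of the 9 genes none passed in any comparison, and differences of impaired from young rats ran from -0.05 to 0.07. Sf3b1, the large scaffold that contacts the branch point, had the smallest unadjusted p of the 83 genes between the aged groups (0.000665). Its level was 10.31 at the lowest, 10.36 at the median and 10.43 at the highest in impaired rats, 10.05, 10.12 and 10.28 in unimpaired rats and 10.15, 10.29 and 10.48 in young rats. The 7 impaired arrays were closely grouped, with an SD of 0.04, and lay above every unimpaired array, while young arrays overlapped both groups. Impaired rats differed from unimpaired rats by 0.20 ± 0.05, a ratio of 1.15, with an interval of 0.10 to 0.31 (limma adjusted p = 0.138). Unimpaired rats differed from young rats by -0.15 ± 0.05 (limma adjusted p = 0.129). After quantile normalization these differences of Sf3b1 were 0.13 and -0.10. Other probe sets for Sf3b1 gave 0.04 ± 0.12 and 0.14 ± 0.23 between the aged groups, with wide intervals that include the value of the first. Sf3b6, which sits at the branch point adenosine, differed by 0.11 ± 0.04 between the aged groups (limma adjusted p = 0.243).

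The Prpf genes encode proteins of the U4, U5 and U6 particles, of U1 and of the catalytic steps. Among the 11, Prpf8, the scaffold around the catalytic centre, differed by 0.05 between impaired and young rats, and Prpf6, a bridge within the tri-snRNP, by 0.06. Prpf19, a ubiquitin ligase of the activated spliceosome, differed by 0.07 ± 0.04 (limma adjusted p = 0.529). Prpf38a, a component of the precatalytic complex, had levels of 8.09 to 8.28 in impaired, 7.52 to 8.24 in unimpaired and 7.90 to 8.40 in young rats. Unimpaired replicate 4, at 7.52, lay lowest. Its difference was -0.20 ± 0.09 between unimpaired and young rats (limma adjusted p = 0.268) and 0.20 ± 0.09 between impaired and unimpaired rats (limma adjusted p = 0.335). Without unimpaired replicate 4 the differences of Prpf38a were -0.10 and 0.10. Prpf39, a U1-associated factor, ran the other way at -0.11 ± 0.08 between the aged groups (limma adjusted p = 0.551) and 0.09 ± 0.08 between unimpaired and young rats. Without unimpaired replicate 3 these differences of Prpf39 were -0.05 and 0.04.

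The U2 auxiliary factor reads the 3' splice site, with U2af2 on the polypyrimidine tract and U2af1 on the AG that ends the intron. U2af1 ranged from 9.28 to 9.54 in impaired, 9.03 to 9.41 in unimpaired and 9.10 to 9.59 in young rats, and the groups overlapped. It differed by 0.16 ± 0.08 between impaired and unimpaired rats (limma adjusted p = 0.349), or by 0.09 for U2af1 after quantile normalization, and by 0.09 ± 0.07 between impaired and young rats (limma adjusted p = 0.668). U2af2 differed by 0.07 ± 0.06 between impaired and young rats, 0.08 ± 0.07 between unimpaired and young rats and -0.01 ± 0.07 between the aged groups.

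Among the 9 Srsf genes, Srsf5, an SR protein known to respond to growth signals, had the smallest p against young rats. It ranged from 11.60 to 11.80 in impaired, 11.60 to 11.72 in unimpaired and 11.39 to 11.70 in young rats. All 13 aged arrays were above the young mean of 11.59, within overlapping ranges. The difference of impaired from young rats was 0.13 ± 0.04, with an interval of 0.04 to 0.22 (limma adjusted p = 0.187), and that of unimpaired from young rats 0.04 ± 0.04. Srsf1, the SR protein studied most, had differences of -0.03 ± 0.04, -0.07 ± 0.04 and 0.04 ± 0.04 in impaired minus young, unimpaired minus young and impaired minus unimpaired rats. Its within-group SD of 0.07 was among the smallest of the 83. Srsf11 differed by 0.14 ± 0.06 between the aged groups (limma adjusted p = 0.291), and by 0.06 with another probe set and 0.07 after quantile normalization. Over the family, differences of impaired from young rats ran from -0.07 to 0.13, and all 9 intervals lay within 1.25-fold, against 81.3% of all genes.

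The 17 Hnrnp genes had a median difference of 0.02 between impaired and young rats and of -0.07 between unimpaired and young rats. Between the aged groups 16 of 17 were positive, where 74.7% of all genes were. After quantile normalization 41 of the 83 genes were positive there. Hnrnpr, which binds neuronal messenger RNA, had levels of 9.68 to 9.93 in impaired, 9.18 to 9.77 in unimpaired and 9.48 to 9.78 in young rats. It differed by 0.22 ± 0.08 between impaired and unimpaired rats (limma adjusted p = 0.231). Hnrnph3 had levels of 9.37 to 9.56 in impaired, 9.11 to 9.49 in unimpaired and 9.21 to 9.69 in young rats, with a difference of 0.21 ± 0.07 between the aged groups (limma adjusted p = 0.233). In both genes all 7 impaired arrays were above the unimpaired mean, and the ranges overlapped. Without unimpaired replicate 4 the difference of Hnrnpr was 0.14. Hnrnpf, which binds runs of G, differed by -0.11 ± 0.05 between unimpaired and young rats (limma adjusted p = 0.28), and by -0.07 without unimpaired replicate 8. Hnrnpul1 had differences of -0.09 ± 0.08 and -0.15 ± 0.08 in impaired and unimpaired rats from young rats, and Hnrnpa3 0.10 ± 0.05 and 0.06 ± 0.05. The abundant core proteins Hnrnpa1, Hnrnpa2b1 and Hnrnpc differed by 0.0058, 0.02 and -0.07 between impaired and young rats. Hnrnpa1 and its relatives have near-identical processed pseudogenes, so their probe sets can share signal.

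The 25 Rbm genes are grouped by name and differ in function. Rbm8a encodes Y14, a core protein of the exon junction complex that splicing leaves on messenger RNA. It ranged from 9.53 to 9.80 in impaired, 9.48 to 9.66 in unimpaired and 9.67 to 9.81 in young rats. All unimpaired arrays were below all young arrays, by less than 0.01 at the nearest. Of the 83 genes this held for Rbm8a alone (1.20%), against 1.02% of all genes. The difference was -0.13 ± 0.05 (limma adjusted p = 0.169), and a second probe set gave -0.05. After quantile normalization the difference of Rbm8a was -0.06. Rbm45, an RNA-binding protein of developing neurons, differed by -0.19 ± 0.07 between unimpaired and young rats (limma adjusted p = 0.17) and by 0.18 ± 0.07 between the aged groups (limma adjusted p = 0.256).

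Rbm15b, which helps to direct the methylation of adenosine in RNA, had the most negative difference between the aged groups. Its level was 7.06 at the lowest, 7.48 at the median and 7.55 at the highest in impaired rats, 7.48, 7.61 and 7.80 in unimpaired rats and 7.08, 7.47 and 7.85 in young rats. All 7 impaired arrays were below the unimpaired mean, and young arrays overlapped both groups. The difference was -0.24 ± 0.11 between impaired and unimpaired rats (limma adjusted p = 0.3) and 0.16 ± 0.10 between unimpaired and young rats (limma adjusted p = 0.462). Rbm12b had the largest within-group SD of the 83 genes, 0.43, with a range of 5.86 to 6.75 in impaired, 5.64 to 6.86 in unimpaired and 6.20 to 7.75 in young rats. Young replicate 9 alone set the top of the young range. The difference of -0.30 ± 0.22 between unimpaired and young rats (limma adjusted p = 0.51) had an interval of -0.75 to 0.16. It was -0.14 for Rbm12b without young replicate 9 and -0.16 without unimpaired replicate 4. Rbm33 and Rbm4b had differences of -0.13 ± 0.09 and -0.13 ± 0.10 between impaired and young rats, and Rbm7, a subunit of the nuclear exosome targeting complex, differed by -0.08 ± 0.05 between the aged groups. These were -0.08 for Rbm33 without young replicate 9, -0.07 for Rbm4b without impaired replicate 1 and -0.03 for Rbm7 without unimpaired replicate 1.

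Of the 83 genes, 23 had more than 1 probe set above the filter, 63 probe sets in all, and these need not report the same transcript ends. Their differences had the same sign within a gene for 10 of 23 genes in impaired minus young rats, 17 of 23 in unimpaired minus young rats and 17 of 23 between the aged groups. Signs agree more easily where most probe sets lie on 1 side. Over all tested probe sets 55.2%, 34% and 72.4% were positive, so these counts do not compare agreement between the comparisons. The median range within a gene was 0.08, 0.08 and 0.13 in these comparisons. Over the 83 genes, the interval of a single difference had a median half-width of 0.12, 0.12 and 0.13. Whether probe sets of a gene differ by more than their error was not tested. The SR protein Srsf2 differed by 0.06 between the aged groups by its brightest probe set and by a second one at 0.23 ± 0.06 (limma adjusted p = 0.151). For Srsf6 the difference was -0.04 by its brightest probe set, 0.22 ± 0.07 by the next (limma adjusted p = 0.176) and 0.06 by the dimmest. The middle one had levels of 8.53 to 8.72 in impaired, 8.17 to 8.61 in unimpaired and 8.21 to 8.65 in young rats. Hnrnpa2b1 ran from 0.04 to 0.24 over 4 probe sets between the aged groups. The widest range was that of Rbm15, 0.03 by one and 0.52 ± 0.31 by the other, where the second had a within-group SD of 0.60. Whether these probe sets read different transcripts was not tested.

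**Figure D4:**
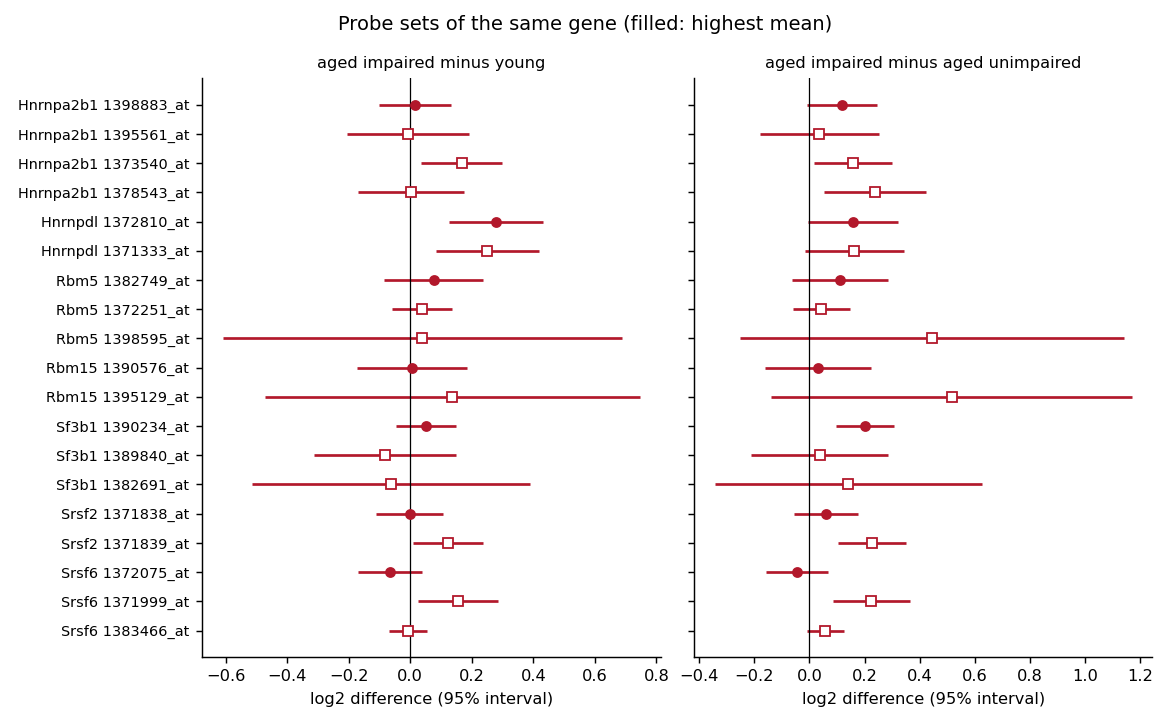
Log2 differences (x axis) with 95% intervals for each probe set of 7 genes with several, for impaired minus young (left) and impaired minus unimpaired rats (right), filled where the probe set stands for the gene. The probe sets of Hnrnpdl lie close together at 0.28 and 0.25 on the left, while those of Srsf6 lie between -0.04 and 0.22 on the right.

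A list of 126 other genes of the spliceosome, splicing regulators and kinases of SR proteins had 116 genes on the array, of which 113 passed the filter. None passed in impaired against young rats (median difference 0.02) or between the aged groups (median 0.07), with 8 of 113 (7.08%) and 18 of 113 (15.9%) at an unadjusted p below 0.05, against 13.1% and 15.8% of all genes. In unimpaired against young rats this count was 18 of 113 (15.9%) against 18.0%, and for all aged rats 14 of 113 (12.4%) against 15.1%. In unimpaired against young rats 1 of 113 genes (0.885%) passed with a lower level, against 95 of 8737 genes and 0.936% of all tested probe sets. For all aged rats 2 of 113 (1.77%) did, against 72 of 8737 genes and 0.705% of all tested probe sets. Elavl4, a neuronal RNA-binding protein that stabilises messenger RNA and shapes splicing, had a lowest level of 7.47, a median of 7.61 and a highest of 7.81 in impaired rats, 7.07, 7.46 and 7.54 in unimpaired rats and 7.56, 7.76 and 8.13 in young rats. All unimpaired arrays were below all young arrays. It fell by 0.48 ± 0.10 in unimpaired rats (limma adjusted p = 0.0204) and by 0.35 ± 0.08 over all aged rats (limma adjusted p = 0.0359), while the difference of impaired from young rats was -0.22 ± 0.09 (limma adjusted p = 0.309). Between the aged groups Elavl4 differed by 0.25 ± 0.10 (limma adjusted p = 0.25).

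Sfpq, a splicing protein of nuclear paraspeckles, had levels of 8.37 to 8.82 in impaired, 8.32 to 8.77 in unimpaired and 8.66 to 9.22 in young rats. All 13 aged arrays were below the young mean, and the ranges overlapped. It fell by 0.31 ± 0.07 over all aged rats (limma adjusted p = 0.0446). The values were -0.28 ± 0.09 in impaired (limma adjusted p = 0.152) and -0.34 ± 0.09 in unimpaired rats (limma adjusted p = 0.0665), each against young rats. Khdrbs3, a regulator of neurexin splicing, differed by -0.26 ± 0.06 between unimpaired and young rats (limma adjusted p = 0.0506), and Khdrbs3 passed without impaired replicate 3 or 4, unimpaired replicate 7 or young replicate 1 (limma adjusted p of 0.0313 to 0.0441). Lsm5 and Lsm7, subunits of the ring on U6 RNA, differed by 0.34 ± 0.07 and 0.19 ± 0.05 between the aged groups (limma adjusted p of 0.129 and 0.165). In both, and in Dhx38, all impaired arrays lay above all unimpaired arrays, which is 3 of 113 genes (2.65%) against 1.19% of all genes. For Lsm7 and Dhx38 the groups were apart by less than 0.01. Sart1, of the tri-snRNP, differed by 0.13 ± 0.04 between impaired and young rats (limma adjusted p = 0.173). Elavl3, a relative of Elavl4, differed by 0.27 ± 0.10 between unimpaired and young rats (limma adjusted p = 0.184). Its level was 8.34 and 8.20 on unimpaired replicates 4 and 8, 7.56 to 7.79 on the other unimpaired arrays and 7.40 to 7.80 in young rats. Leaving out single arrays gave 0.18 to 0.34 for Elavl3. Snrnp70 of U1 differed by 0.09 ± 0.06 between unimpaired and young rats (limma adjusted p = 0.412), and the helicase gene Dhx16 by -0.19 ± 0.12 between the aged groups (limma adjusted p = 0.47). Without unimpaired replicate 4 the difference of Dhx16 was -0.08. The call for Elavl4 in unimpaired rats was lost without unimpaired replicate 1, where it differed by -0.42 (limma adjusted p = 0.0511). That for Elavl4 over all aged rats was lost in 10 of 21 fits that left out 1 array (limma adjusted p of 0.0508 to 0.088 for Elavl4), namely impaired replicates 1, 2, 6, 7 and 8, unimpaired replicates 1 and 3 and young replicates 4, 6 and 9. That for Sfpq was lost in 16 of 21 (limma adjusted p of 0.0519 to 0.0961 for Sfpq), all but impaired replicate 6, unimpaired replicate 7 and young replicates 1, 4 and 7.

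**Figure D5:**
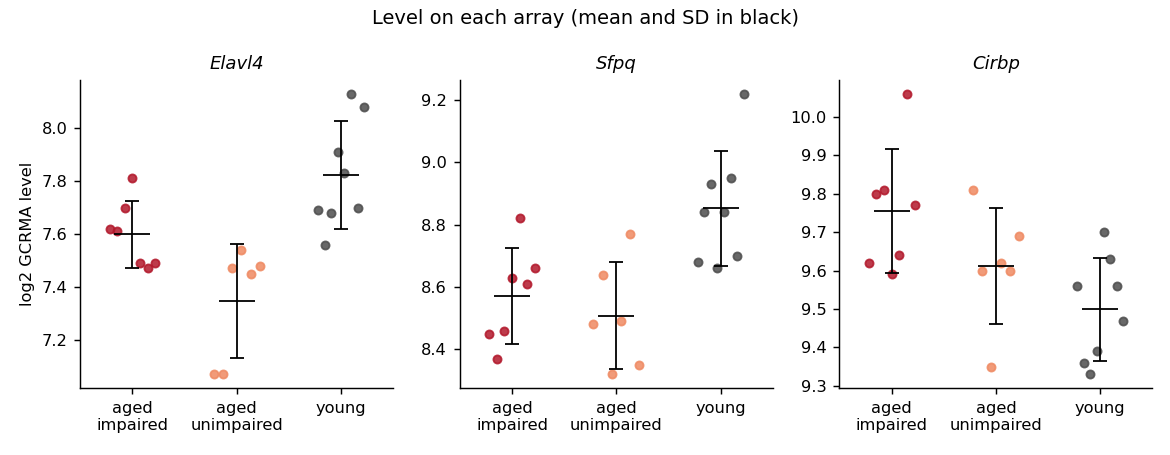
Log2 level (y axis) of Elavl4, Sfpq and Cirbp on each array in impaired, unimpaired and young rats, with mean and SD in black. All 6 unimpaired arrays are below all 8 young arrays for Elavl4, and for Sfpq and Cirbp the groups overlap.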

How the data were processed

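Total RNA from 21 single rats was measured on Affymetrix arrays. The deposited log2 values were made by the authors with GCRMA, a background correction and probe set summary named without a version in the submitters' processing notes. Arrays omitted by the submitters (1 per group) have no values here. Young replicate 9 was kept as young, as its title and age state. Of 31099 probe sets, 57 are controls, and 15177 others were above log2 4 on at least 6 arrays and were tested. Symbols come from the platform annotation, and promoter sequences from RefSeq GRCr8. The groups were fitted together with limma 3.58.1 (lmFit, eBayes) in R 4.3.3, with 18 residual degrees of freedom, with Benjamini-Hochberg adjustment across the tested probe sets. Values are log2 differences ± the moderated SE. The script was tested on simulated data. The labels give no date or batch, so none was modelled, and the number of arrays limits precision.

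Genes, lists and alternatives were chosen with earlier results of these data known. Named genes are members that passed, the 4 largest differences in each direction per contrast, the smallest p per family, and, of the other splicing genes, those that passed and the 2 smallest p per direction. Genes with several probe sets, genes at an unadjusted p below 0.05 and some textbook members were named in addition, after their values were seen. Alternatives were the level filter (none, or above 6), median centring, quantile normalization, array weights, a variance trend, fits of 2 groups, a replicate block, another probe set per gene, and arrays left out. Replicate numbers belong to different rats and were not treated as a pairing. Deviations of same-numbered arrays correlated at -0.118 to 0.2 over 17 pairs, and 4 were above 0.1. Arrays with different numbers were not set beside these, so whether equal numbers share a processing step was not tested.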

Additional observations from a re-analysis of the deposited data

Results flagged for a closer look

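For the 38 probe sets named by rule, each group was searched for an array far from its own group. Of 114 such searches 13 found one. A nominal expectation of about 5.7 holds only for independent probe sets not chosen by their values. These were chosen for large differences or small p on the same arrays, so it cannot serve as a chance level here.

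Srsf5 was 11.72 on unimpaired replicate 6, against 11.60 to 11.64 on the other unimpaired arrays, and 11.39 on young replicate 3, against 11.57 to 11.70. Rbm4b was 5.16 on unimpaired replicate 1, against 5.66 to 5.81. Rbm12b was 5.86 on impaired replicate 1, against 6.55 to 6.75, and 7.75 on young replicate 9, against 6.20 to 6.89. Prpf39 was 9.91 on unimpaired replicate 3, against 9.53 to 9.61, and Snrpd1 was 9.05 on impaired replicate 6, against 9.41 to 9.57. Prpf38a was 7.90 on young replicate 3, against 8.17 to 8.40, and Rbm7 was 4.91 on young replicate 2, against 4.62 to 4.74.

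Among the other splicing genes, Lsm5 was 8.29 on unimpaired replicate 4, against 8.52 to 8.65, and Lsm7 was 8.88 on impaired replicate 7, against 8.61 to 8.70. Dhx16 was 7.08 on impaired replicate 2, against 6.39 to 6.67, and 7.36 on unimpaired replicate 4, against 6.54 to 6.84. For Lsm5 every impaired array was above the young mean and every unimpaired array below it, with mean differences from young rats of 0.109 in impaired and -0.236 in unimpaired rats. Their difference was 0.345 (limma adjusted p = 0.129).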

How the results depend on the processing

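In each comparison 0 genes of these families passed under all of the up to 10 alternatives that left out no single array, the replicate block included. The set was the 83 genes except with other level filters: with none it was all 95 genes, and above 6 it was fewer than 83. The smallest adjusted p among the genes kept under these alternatives was 0.061 to 0.284 for impaired minus young and 0.052 to 0.18 for unimpaired minus young. It was 0.0955 to 0.329 between the aged groups and 0.0593 to 0.265 for all aged minus young. With the block the counts were 0 and the smallest adjusted p was 0.061, 0.18, 0.133 and 0.125. No call among the 83 genes was changed by the block. When single arrays were left out the count was 0 to 1 for impaired minus young, unimpaired minus young and all aged minus young, and 0 throughout between the aged groups. The 1 gene was Hnrnpdl without young replicate 1 (all aged minus young 0.24, adjusted p = 0.0462), Rbm3 without young replicate 5 and Snrpe without unimpaired replicate 7. Quantile normalization moved the median of the 83 genes to 0.01915 in unimpaired minus young rats and to -0.00023 between the aged groups (over all tested probe sets, 0.0057 and -0.0056), and the cause was not tested. Named values that changed sign were Rbm12b with the replicate block (0.135 in impaired minus young, 0.051 in all aged minus young) and without young replicate 9 (0.037 in impaired minus young, where leaving out single arrays gave -0.18 to 0.04). Hnrnpa3 changed sign in all aged minus young (-0.0066) with the probe set of largest SD, which is another probe set. The calls of Elavl4 (all aged) and Sfpq were lost with no filter, without the 4 arrays and with the block (adjusted p of 0.0801, 0.13 and 0.118, and of 0.097, 0.179 and 0.151), and that of Sfpq with array weights (0.0877). That of Elavl4 in unimpaired rats was lost without the 4 arrays (0.056), with the block (0.107) and with only those groups fitted (0.0662). Khdrbs3, of the other splicing genes, passed in unimpaired minus young rats with the stricter filter (0.0423), array weights (0.0422) and a variance trend (0.0402).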
